A study of Homo sapiens with 5 samples.

Results

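The aminoacyl-tRNA synthetases, the enzymes that attach each amino acid to its transfer RNA (tRNA), were followed at the level of messenger RNA in PC-3, a human prostate cancer cell line. The genes were taken from a list of 38, which held 19 genes of cytosolic enzymes, 3 genes of non-enzymatic scaffold proteins and 16 genes of mitochondrial enzymes. A gene was measured through the probe set that carried its symbol alone and had the highest mean over the arrays. By this rule 33 of the 38 were measured, among 19775 genes measured in all: 17 cytosolic enzyme genes, 1 scaffold gene (AIMP1) and 15 mitochondrial enzyme genes. MARS1, QARS1 and TARS2 share their probe sets with other symbols, and no probe set was found under the symbols AIMP2 and EEF1E1, so these 5 were not analysed here.

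RNA was measured on 5 Affymetrix arrays, 1 for each sample, and all 5 samples were PC-3 cells. The first culture was grown under ordinary flat conditions (2D), and the second as spheroids, which are rounded clusters of cells. The remaining 3 were cells that expressed a short hairpin RNA, either a control hairpin against GFP (shGFP) or a hairpin meant to deplete the pseudokinase TRIB1 (shTRIB1-1 and shTRIB1-2). The study set flat against spheroid growth, and the TRIB1 hairpins against the control hairpin, to find the genes that differ. The labels name no drug or other treatment, describe growth in dishes for every sample, and do not say how the spheroids were grown, whether the hairpin lines were pools or clones, or whether the samples came from separate cultures. The 2D, spheroid and shGFP samples have no replicate; with so few arrays, every value below is imprecise.

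Cells keep a separate set of synthetases for each compartment that makes protein. In the cytosol these enzymes charge the tRNAs used by the main ribosomes, and several of them sit in a large multisynthetase complex held together by the scaffold proteins. Another set, also encoded in the nucleus, is imported into mitochondria and serves the few proteins made from mitochondrial DNA, while GARS1 and KARS1 encode both the cytosolic and the mitochondrial form of their enzyme. Many cytosolic synthetase genes are known targets of ATF4, the transcription factor of the integrated stress response, which is translated more when amino acids run short or unfolded proteins build up, whereas the genes of mitochondrial synthetases are not usually counted among its targets.

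The promoter sequences are shown first because the motif searched was counted more often in cytosolic than in mitochondrial genes, without any use of the arrays; that difference was not tested. The windows come from RefSeq (GRCh38.p14) and run from 250 bases before to 50 bases after a gene's first transcribed base. They were searched on both strands for TGATGNAA, the core of the element bound by ATF4 with C/EBP partners, and for no other motif. The motif was present in 3.62% of all 35116 windows and in 4.46% of all 27305 genes with a window. Of the cytosolic genes on the list, 7 of 16 with a window held it (43.8%): AARS1, CARS1, GARS1, IARS1, MARS1, NARS1 and TARS1. In the mitochondrial set 1 of 14 held it (7.14%), YARS2, and among the scaffold genes 0 of 3 held it. No window was found for LARS1, VARS1, YARS1, AARS2 and VARS2. A match describes these letters only, and the absence of a match says nothing of what binds there. The stretches around the matches in measured genes follow, 80 bases each on the strand of the gene, with the motif in capitals (as its reverse complement where it lies on the opposite strand).
AARS1: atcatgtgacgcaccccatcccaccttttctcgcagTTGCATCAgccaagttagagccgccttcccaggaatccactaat
CARS1: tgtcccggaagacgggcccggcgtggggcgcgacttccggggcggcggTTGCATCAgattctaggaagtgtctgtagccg
GARS1: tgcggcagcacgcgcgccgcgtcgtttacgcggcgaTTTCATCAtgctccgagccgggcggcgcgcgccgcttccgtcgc
IARS1: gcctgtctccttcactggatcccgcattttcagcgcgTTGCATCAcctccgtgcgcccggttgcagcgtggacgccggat
NARS1: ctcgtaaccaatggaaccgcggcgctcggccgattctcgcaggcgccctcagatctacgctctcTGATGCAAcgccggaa
TARS1: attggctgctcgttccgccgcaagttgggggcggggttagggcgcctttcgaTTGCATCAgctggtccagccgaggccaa
YARS2: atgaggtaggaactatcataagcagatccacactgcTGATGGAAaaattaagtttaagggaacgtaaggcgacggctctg
These lie at chr16:70289650-70289729 (minus strand), chr11:3057394-3057473 (minus strand), chr7:30594809-30594888 (plus strand), chr9:92293668-92293747 (minus strand), chr18:57621807-57621886 (minus strand), chr5:33440915-33440994 (plus strand) and chr12:32756051-32756130 (minus strand). Counted from the first transcribed base as 1, with no position 0, the match of AARS1 spans -187 to -180, that of GARS1 -33 to -26, that of IARS1 -13 to -6 and that of CARS1 -2 to 6. It spans 3 to 10 in TARS1 and 15 to 22 in NARS1, so that 5 of the 6 cytosolic matches lie close to the start, while that of YARS2 lies further out, at -197 to -190.

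The histidine enzymes share their promoter, which is shown because they differed most of the pairs in which the cytosolic gene was the lower. HARS1 and HARS2 are transcribed away from each other, with 84 bases between their first transcribed bases. The stretch is given on the HARS1 strand, from chr5:140691341-140691484 (minus strand), with those 84 bases in capitals. TGATGNAA was not found in the window of either gene.
HARS1: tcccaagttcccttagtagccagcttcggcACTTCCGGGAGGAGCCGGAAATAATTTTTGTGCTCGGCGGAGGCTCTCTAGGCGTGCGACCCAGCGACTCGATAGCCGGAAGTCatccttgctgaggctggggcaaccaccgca

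Before the results, the state of the arrays. Level means log2 of the authors' RMA intensity, and a level under 6 was treated as near background. All 33 measured genes reached 6 on at least 1 array of each comparison, and PARS2 on the shTRIB1-2 array, at 5.95, was the only value under it. Of the epithelial marker genes, 5 of 5 were at 6 or above on every array, 5 of 6 blood and endothelial markers were below 6 on every array (HBB was at 6.15 on 4 arrays and 6.25 on shTRIB1-1), and so were 4 of 4 fibroblast markers. The TRIB1 probe set read 11.97 on shGFP, 11.91 on the first TRIB1 hairpin (shTRIB1-1), 11.76 on the other (shTRIB1-2), 11.04 on 2D and 11.23 on spheroid, so TRIB1 was hardly lower than shGFP on the hairpin arrays and higher than 2D. The labels call these samples TRIB1-depleted, and this probe set does not show it. The ratio of 5′ to 3′ signal for actin, a sign of RNA integrity and labelling, was 0.436, 0.445 and 0.442 on the 3 hairpin arrays, 0.184 on 2D and 0.131 on spheroid. That ratio puts the hairpin arrays apart from the other pair, and any difference between a hairpin array and the 2D or spheroid array is given with that reservation.

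Across all arrays most cytosolic synthetase genes were highest in the shGFP sample. The shGFP array held the highest of the 5 levels for 12 of 17 cytosolic genes, where this was so for 15.2% of all genes. Among the mitochondrial genes the shGFP array was highest for 5 of 15 (FARS2, MARS2, NARS2, VARS2 and YARS2), and the spheroid array was lowest for 7 of 15, against 28.1% of all genes. Only 2 of 17 cytosolic genes, HARS1 and TARS1, were lowest on the spheroid array. The spheroid array held the highest level of AARS1, NARS1 and WARS1 in the cytosolic set, of EARS2 and HARS2 in the mitochondrial set, and of AIMP1, which is 6 genes of 33, against 24.9% of all genes.

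**Figure D1:**
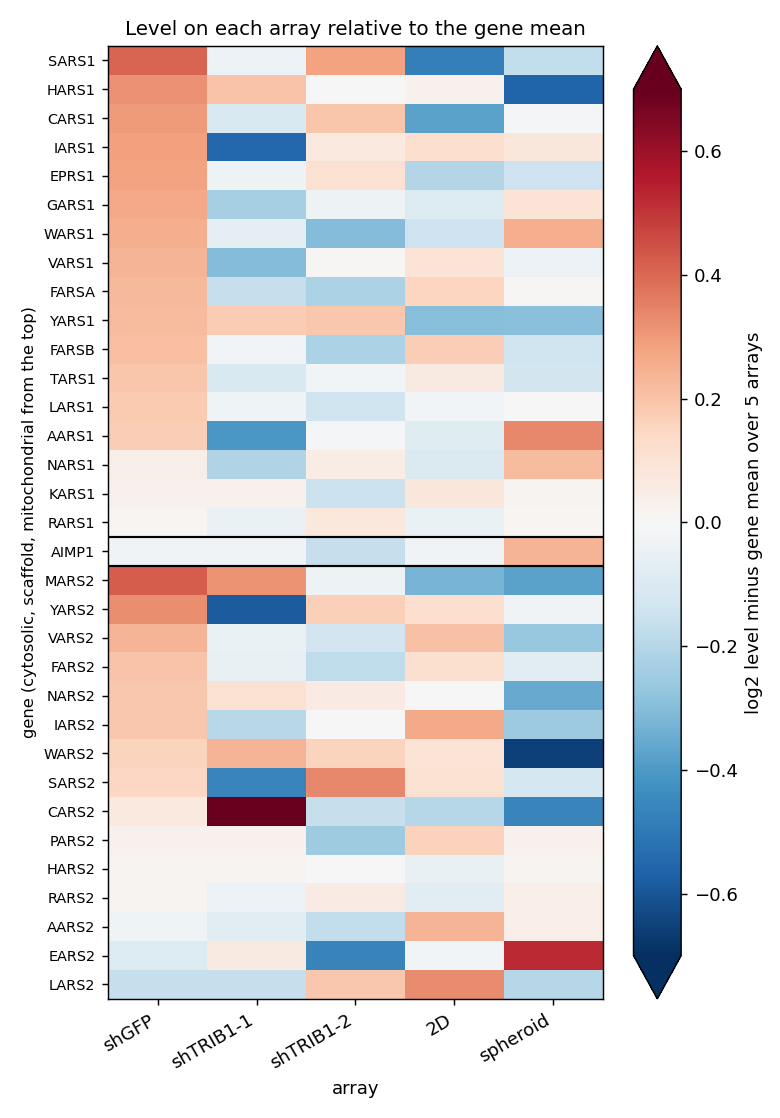
Level of each measured gene on each of the 5 arrays minus that gene's mean over the 5 arrays, on the log2 scale, with cytosolic genes above, AIMP1 between the lines and mitochondrial genes below. The colour scale ends at 0.7 in both directions. The shGFP column is highest for 12 of 17 cytosolic genes, and the spheroid column is lowest for 7 of 15 mitochondrial genes.

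Between spheroid and flat growth, the mitochondrial synthetase genes were mostly lower in spheroids while the cytosolic ones went both ways. The level was lower in spheroid than in 2D for 12 of 15 mitochondrial genes and for 7 of 17 cytosolic genes, where 50.9% of all 10570 genes compared were lower. The median difference, spheroid minus 2D, was -0.19 over the mitochondrial genes, 0.025 over the cytosolic genes and -0.0083 over all genes. Set against shGFP as well, the spheroid array was below both 2D and shGFP for 10 of 15 mitochondrial genes and 7 of 17 cytosolic genes (39.9% of all genes). It was above both for 3 of each set (34.5% of all genes). The differences were small. Only HARS1 and WARS2 passed 1.5-fold, both lower, against 12.9% of all genes that were at least 1.5-fold lower, and no synthetase gene was at least 1.5-fold higher, against 12.3%. Other processing moved single genes over that line: SARS1 was 0.92 higher when its probe sets were combined by their median, and EARS2 passed with the arrays centred or with the mean of 2D and shGFP as reference. The share of synthetase genes past 1.5-fold was thus below that of all genes. With 1 array in each condition there is no replicate check and no test of any of these values.

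WARS2, the mitochondrial tryptophan enzyme, showed the lowest difference of the set. Its level was 8.19 on 2D and 7.44 on spheroid, a difference of -0.76 (1.69-fold lower), and it was 8.25, 8.33 and 8.25 on shGFP, shTRIB1-1 and shTRIB1-2. The spheroid array therefore stood below the other 4, which lay between 8.19 and 8.33. A further probe set of WARS2 read 7.91 on 2D and 6.97 on spheroid, a difference of -0.94, and 7.37, 7.39 and 7.30 on the hairpin arrays in the same order.

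LARS2 and IARS2, which charge mitochondrial tRNAs with leucine and isoleucine, followed. LARS2 read 9.93 on 2D and 9.40 on spheroid, a difference of -0.53, but its levels of 9.44 on shGFP and 9.44 on shTRIB1-1 were close to that of the spheroid array, with 9.79 on shTRIB1-2. For LARS2 it was the 2D array that stood highest. IARS2 read 11.80 on 2D and 11.28 on spheroid, a difference of -0.52, with 11.72, 11.34 and 11.53 on shGFP, shTRIB1-1 and shTRIB1-2. The shTRIB1-1 level of IARS2 was thus close to the spheroid level.

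VARS2 and NARS2, the mitochondrial valine and asparagine enzymes, were lower by similar amounts. VARS2 went from 9.03 on 2D to 8.56 on spheroid, a difference of -0.47, and read 9.06, 8.78 and 8.69 on shGFP, shTRIB1-1 and shTRIB1-2. NARS2 went from 9.26 to 8.91, a difference of -0.35, and read 9.45, 9.37 and 9.32 on the hairpin arrays. For both genes the spheroid array was the lowest of the 5. CARS2 (-0.26), SARS2 (-0.23), AARS2 (-0.19), FARS2 (-0.19), YARS2 (-0.14), PARS2 (-0.13) and MARS2 (-0.059) completed the 12 that were lower in spheroid.

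The mitochondrial genes that were higher in spheroid were EARS2, RARS2 and HARS2. EARS2 encodes the glutamate enzyme, which in mitochondria also starts the route to glutamine-charged tRNA. Its level was 8.12 on 2D and 8.66 on spheroid, a difference of 0.55, with 8.04, 8.20 and 7.67 on shGFP, shTRIB1-1 and shTRIB1-2, so that spheroid stood above the other 4. That reading rests on 1 probe set of EARS2, since the other 3 differed by -0.15, -0.061 (a probe set below 6) and 0.055. RARS2 (arginine) differed by 0.13 and HARS2 by 0.070.

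In the cytosolic set the highest differences belonged to AARS1, WARS1, CARS1, NARS1 and SARS1, which charge tRNAs with alanine, tryptophan, cysteine, asparagine and serine. AARS1 read 9.78 on 2D and 10.20 on spheroid, a difference of 0.42, and 10.04, 9.46 and 9.85 on shGFP, shTRIB1-1 and shTRIB1-2. WARS1, which interferon is also known to induce, read 9.63 on 2D and 10.03 on spheroid, a difference of 0.39, and 10.03, 9.71 and 9.47 on the hairpin arrays. The second probe set of WARS1 gave -0.041, so the higher level in spheroid was seen with the brighter probe set alone. CARS1 read 10.94 and 11.30, a difference of 0.35, while shGFP stood above both at 11.61, with 11.21 and 11.51 for the TRIB1 hairpins.

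NARS1 and SARS1 showed 2 different patterns with nearly the same difference. NARS1 read 12.55 on 2D and 12.87 on spheroid, a difference of 0.32, and the spheroid array was its highest, above 12.69 on shGFP, 12.44 on shTRIB1-1 and 12.70 on shTRIB1-2. SARS1 read 10.76 on 2D and 11.07 on spheroid, a difference of 0.31, but all 3 hairpin arrays were higher than both, at 11.65, 11.20 and 11.52. GARS1, the glycine enzyme of both compartments, differed by 0.20. EPRS1, RARS1, LARS1 and YARS1 differed by 0.060, 0.058, 0.025 and 0.016, which is little against the differences seen between probe sets of 1 gene.

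HARS1 stood apart at the low end. Its level was 9.97 on 2D and 9.38 on spheroid, a difference of -0.59 (1.51-fold lower), and 10.26, 10.14 and 9.94 on shGFP, shTRIB1-1 and shTRIB1-2. The spheroid level was the lowest of the 5, with the next at 9.94. HARS1 lies just past the 1.5-fold line and falls short of it when 16 is added to each intensity before the log. FARSB, the beta subunit of the phenylalanine enzyme, read 10.28 on 2D and 9.97 on spheroid, a difference of -0.32, and FARSA, the alpha subunit, 9.60 and 9.46, a difference of -0.14. TARS1 (-0.20), VARS1 (-0.14), KARS1 (-0.063) and IARS1 (-0.037) were the others that were lower.

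The enzymes of the multisynthetase complex differed little between these cultures with the probe sets used. Of 7 listed, the 5 measured, EPRS1, IARS1, KARS1, LARS1 and RARS1, differed by -0.063 to 0.060, with a median of 0.025. EPRS1, which joins the glutamate and proline enzymes in 1 chain, gave 0.060, 0.044 and 0.024 with its 3 probe sets, but the second KARS1 probe set gave -0.25, and the others of LARS1 gave -0.12, -0.25 and 0.039. The scaffold gene AIMP1 read 10.22 on 2D and 10.48 on spheroid, a difference of 0.26, against 10.22, 10.22 and 10.08 on the hairpin arrays. Its other probe sets gave -0.20 and 0.39, so AIMP1 has no settled direction here.

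**Figure D2:**
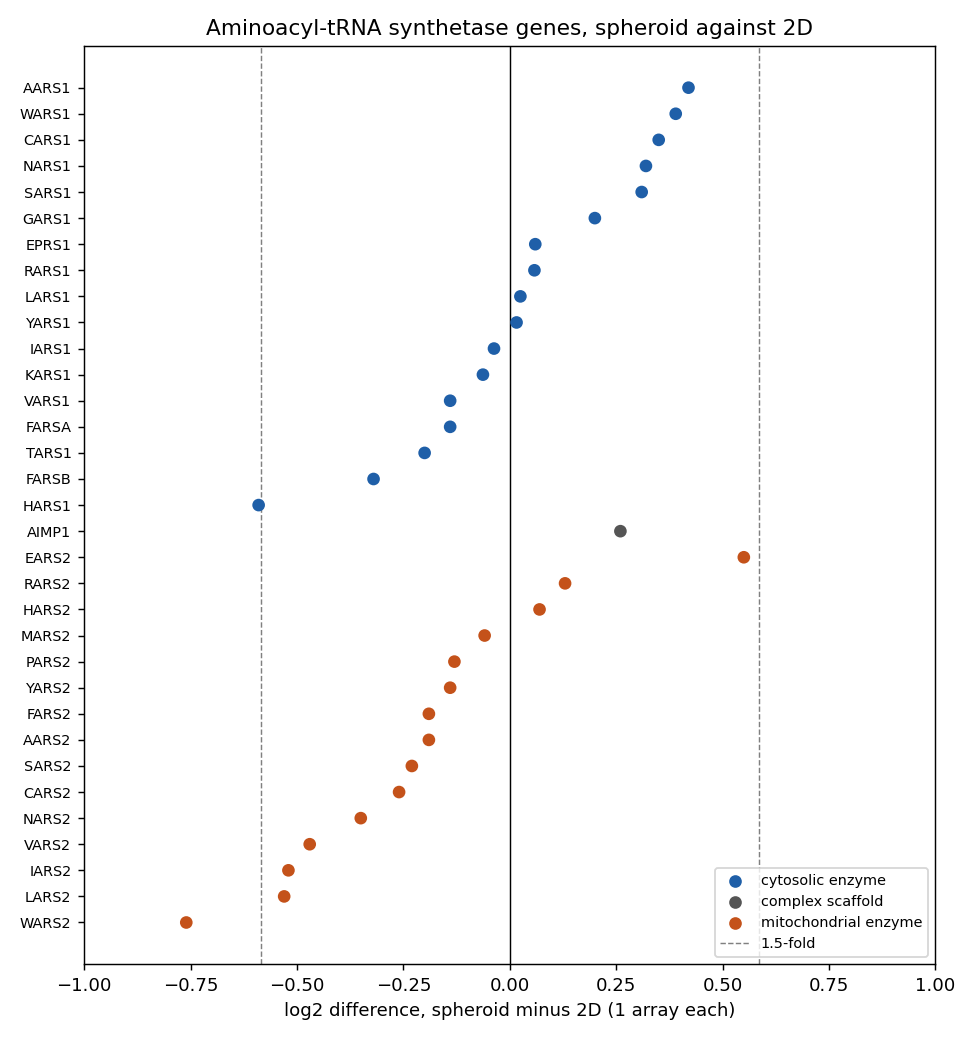
Difference in level, spheroid minus 2D, on the log2 scale for each measured gene, 1 array per condition, with cytosolic genes in blue, AIMP1 in grey and mitochondrial genes in orange; dashed lines mark 1.5-fold. Most mitochondrial genes lie left of 0 (12 of 15), the cytosolic genes lie on both sides (10 higher, 7 lower), and HARS1 and WARS2 lie past the left line.

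Some technical measures and cell markers differed along with the culture condition, and their part in these results was not tested. The 5′ to 3′ ratio was lower on the spheroid array than on the 2D array for actin (0.131 against 0.184) and for GAPDH (0.763 against 0.895). It was also lower for the thr spike, a control RNA that does not come from the cells (0.0913 against 0.113). Less signal far from the 3′ end was thus read on the spheroid array for the control as well as for RNA of the cells. The summed level of the 5 epithelial markers was 14.22 on 2D and 13.72 on spheroid, and that of the 4 fibroblast markers, each below 6, was 6.41 and 7.09. Of the epithelial markers CDH1 was 0.084 higher in spheroid and the others were lower. Of the fibroblast markers COL3A1 differed by 1.98 and the others by 0.25 or less. In RNA from whole cultures, fewer cells of a type and less RNA per cell cannot be told apart.

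Comparing each cytosolic gene with the mitochondrial gene for the same amino acid removes the choice of amino acids from the contrast. Differences were set side by side and not levels, since 2 probe sets do not share a scale. The comparison took the 11 amino acids with both genes measured under names that match apart from the final 1 or 2. In 9 of these 11 the spheroid minus 2D difference was higher for the cytosolic gene. The cytosolic difference exceeded the mitochondrial one by a median of 0.54. For tryptophan, WARS1 differed by 0.39 and WARS2 by -0.76, a gap of 1.15, and this was the widest of the 11. The gap was 0.67 for asparagine, 0.61 for alanine, 0.61 for cysteine, 0.55 for leucine, 0.54 for serine, 0.48 for isoleucine, 0.33 for valine and 0.16 for tyrosine. With the lower probe set of WARS1 in place of the brighter one, WARS1 would still lie above both WARS2 probe sets.

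Histidine and arginine were the exceptions among these 11. HARS1 differed by -0.59 and HARS2 by 0.070, a gap of -0.66, although the pair starts from the shared promoter printed above. HARS2 was nearly flat over all arrays, at 9.98, 9.98, 9.96, 9.91 and 9.98 on shGFP, shTRIB1-1, shTRIB1-2, 2D and spheroid, so the gap came from HARS1. RARS1 differed by 0.058 and RARS2 by 0.13, a gap of -0.067. RARS1 was also among the flattest cytosolic genes, at 11.06 on both shGFP and spheroid and at most 11.12, on shTRIB1-2. Glutamate, proline and phenylalanine were left out of the 11, since their genes do not pair by name. For glutamate the cytosolic difference was also the lower (EPRS1 0.060, EARS2 0.55). For proline it was the higher (EPRS1 0.060, PARS2 -0.13). For phenylalanine, FARSA (-0.14) lay above FARS2 (-0.19) and FARSB (-0.32) below it.

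**Figure D3:**
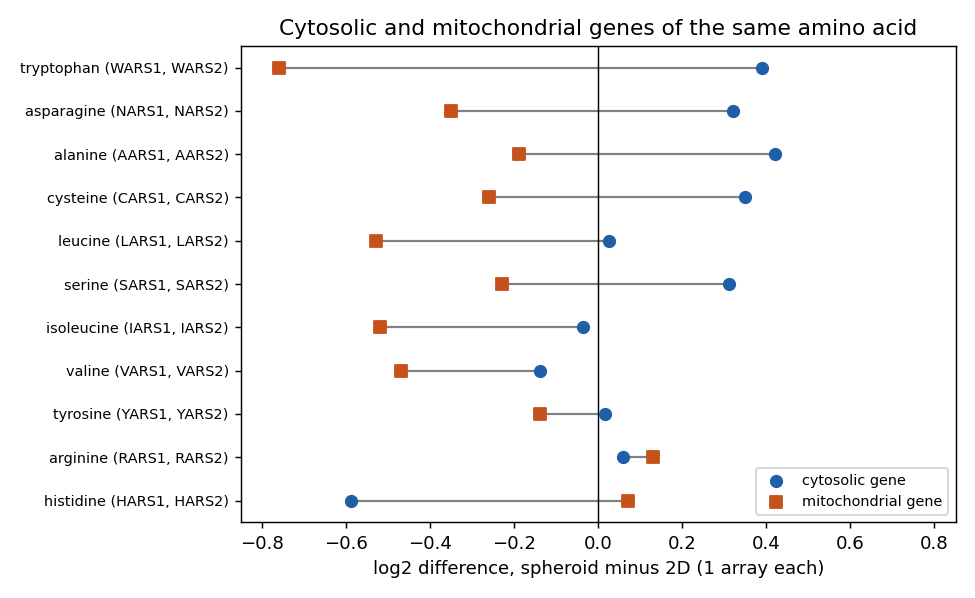
Difference in level, spheroid minus 2D, on the log2 scale for the cytosolic gene (blue circle) and the mitochondrial gene (orange square) of each of 11 amino acids, joined by a line, 1 array per condition. The circle lies right of the square for 9 amino acids and left of it for histidine and arginine; the longest line, 1.15, belongs to tryptophan.

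With the hairpins against TRIB1, most cytosolic synthetase genes were slightly lower than in the shGFP sample. On both hairpin arrays 14 of 17 cytosolic genes were lower, where 34.7% of all 10522 genes compared were, and none was higher on both, against 25%. KARS1, NARS1 and RARS1 were the remaining 3. Among the 14, second probe sets of SARS1 and VARS1 were higher than shGFP on shTRIB1-2 (0.13 and 0.25). Of the mitochondrial genes, 7 of 15 were lower on both (AARS2, FARS2, IARS2, MARS2, NARS2, VARS2 and YARS2) and none was higher on both. The median difference from shGFP over the cytosolic genes was -0.31 on shTRIB1-1 and -0.21 on shTRIB1-2, while over the mitochondrial genes it was -0.058 and -0.16 and over all genes -0.027 and -0.0095. Both hairpins are measured against the same shGFP array, so a level that was high on that array lowers both differences together.

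None of these genes was called different. With limma, 0 of 10522 genes passed a Benjamini-Hochberg adjusted p of 0.05 (background of calls 0%), and 356 genes (3.38%) had an unadjusted p under 0.05. None of the 33 synthetase genes was among the 356, and their adjusted p ran from 0.951 to 1 in limma. At 1.5-fold on both hairpins, 0 of 33 passed in either direction, against 0.96% of all genes lower and 1.77% higher. The fit has 1 residual degree of freedom, from the difference between the hairpin arrays, and the SDs below come from the same 2 arrays and leave out the spread of shGFP.

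Both subunits of the phenylalanine enzyme were lower with each hairpin. FARSA read 9.68 on shGFP, 9.29 on shTRIB1-1 and 9.23 on shTRIB1-2, differences of -0.39 and -0.45 (mean -0.42 ± 0.039, SD, n = 2). It had the smallest unadjusted p of the set (0.0634 in limma, adjusted p = 0.951). FARSA was 9.60 on 2D, above both hairpin arrays with this probe set. FARSB read 10.32, 10.09 and 9.89, differences of -0.24 and -0.43 (mean -0.33 ± 0.14, SD, n = 2), with 10.28 on 2D. The second FARSA probe set gave -0.33 and -0.36 against shGFP, but read 8.94 on 2D, below the 9.07 and 9.04 of the hairpin arrays, so the position of 2D depends on the probe set.

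WARS1, GARS1, VARS1 and AARS1 had mean differences of similar size. WARS1 read 10.03 on shGFP, 9.71 on shTRIB1-1 and 9.47 on shTRIB1-2, a mean difference of -0.43 ± 0.17 (SD, n = 2), and its second probe set gave -0.50 and -0.61. GARS1 read 12.43, 11.93 and 12.13, a mean of -0.40 ± 0.15 (SD, n = 2). VARS1, a valine enzyme, read 8.34, 7.80 and 8.11, a mean of -0.38 ± 0.22 (SD, n = 2), but its dimmer second probe set gave 0 and 0.25, and the median of both probe sets gave -0.13. AARS1 had the mean -0.38 ± 0.28 (SD, n = 2), with most of it on the shTRIB1-1 array (-0.58 against -0.19).

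Several members were much lower with 1 hairpin than with the other. IARS1 read 12.56 on shGFP, 11.72 on shTRIB1-1 and 12.34 on shTRIB1-2, differences of -0.84 and -0.22. YARS2 read 10.20, 9.29 and 10.04, differences of -0.91 and -0.16, and SARS2 6.62, 6.01 and 6.81, differences of -0.61 and 0.19. These 3 were the synthetase genes at least 1.5-fold lower on the shTRIB1-1 array (3 of 33, against 7.17% of all genes), and no synthetase gene passed 1.5-fold on the shTRIB1-2 array in either direction, against 4.12% lower and 5.08% higher. CARS2 went the opposite way on the former array alone. It read 8.54 on shGFP, 9.22 on shTRIB1-1 and 8.31 on shTRIB1-2, differences of 0.68 and -0.23, and was the 1 synthetase gene at least 1.5-fold higher on shTRIB1-1, against 6.12% of all genes.

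In the mitochondrial set, FARS2, VARS2 and IARS2 were lower on both hairpin arrays by between 0.19 and 0.39. FARS2, which carries phenylalanine in mitochondria, read 8.94 on shGFP, 8.69 on shTRIB1-1 and 8.56 on shTRIB1-2, and its second probe set at or above 6 gave -0.17 and -0.30. VARS2 had a mean difference of -0.32 ± 0.062 (SD, n = 2). LARS2 was level with shGFP on shTRIB1-1 (-0.0013) and higher on shTRIB1-2 (0.35). HARS2 differed by 0 and -0.017 and WARS2 by 0.087 and -0.0013, so the gene with the lowest difference in spheroid had almost none with the hairpins.

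Other cytosolic enzymes were lower by smaller amounts. The mean differences of LARS1, TARS1, SARS1, CARS1, EPRS1 and HARS1 lay between -0.28 and -0.22. LARS1, the leucine enzyme that also senses leucine for mTORC1, read 11.31, 11.10 and 10.99, and its 3 other probe sets were also lower on both hairpin arrays. YARS1 was lower by only 0.041 and 0.031. KARS1 read 12.85 on shGFP and 12.85 on shTRIB1-1, and NARS1 read 12.69 on shGFP and 12.70 on shTRIB1-2, so neither differed on both.

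**Figure D4:**
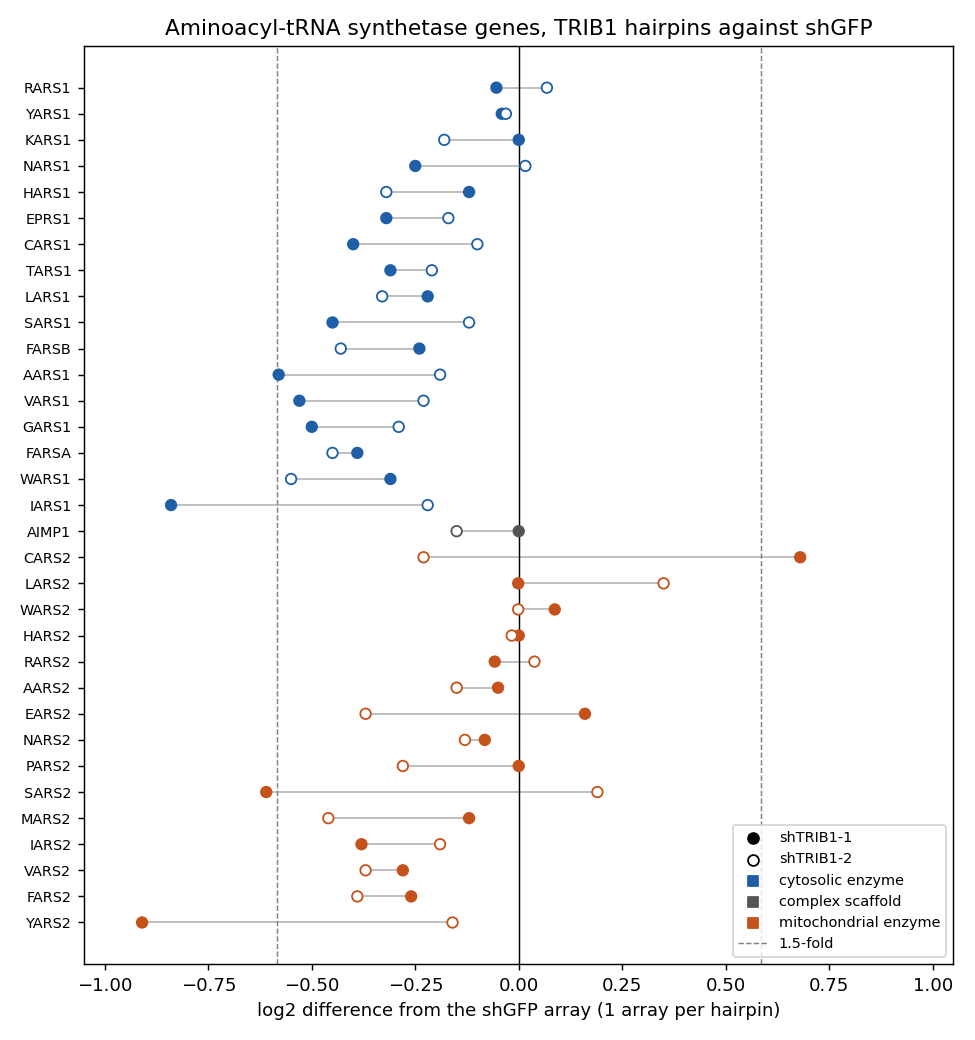
Difference in level from the shGFP array on the log2 scale for each measured gene, with filled circles for shTRIB1-1 and open circles for shTRIB1-2 (1 array each) joined by a line, cytosolic genes in blue, AIMP1 in grey and mitochondrial genes in orange; dashed lines mark 1.5-fold. Both circles lie left of 0 for 14 of 17 cytosolic genes and 7 of 15 mitochondrial genes, and no gene has both circles past a dashed line.

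Within amino acids, the contrast of compartments seen between spheroid and 2D did not recur in the same form between the TRIB1 hairpins and shGFP. The cytosolic gene had the lower difference in 8 of 11 pairs on shTRIB1-1 (median gap -0.21) and in 6 of 11 on shTRIB1-2 (median gap -0.029). It was the lower on both arrays in 5 pairs (alanine, histidine, isoleucine, leucine and tryptophan) and the higher on both in 2, arginine and tyrosine. Tyrosine had the highest gap on shTRIB1-1, 0.86, from the low YARS2 value there, and cysteine the lowest, -1.09, from the high CARS2 value. On shTRIB1-2 these gaps were 0.13 and 0.12. A contrast like that of spheroid minus 2D was seen for shGFP minus 2D. There the cytosolic difference was the higher in 9 of 11 pairs, with a median gap of 0.32. Both of these share the single 2D array as reference. For spheroid minus shGFP the medians were close, at -0.22 over the cytosolic and -0.28 over the mitochondrial genes.

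Against the 2D culture the hairpin arrays gave another picture of the cytosolic genes. The shGFP array was above 2D for 16 of 17 cytosolic genes, all but KARS1, against 48.9% of all genes, with a median difference of 0.21, and for 10 of 15 mitochondrial genes, with a median of 0.055. SARS1 (0.89, 1.85-fold), CARS1 (0.67, 1.59-fold) and MARS2 (0.75) were at least 1.5-fold higher on shGFP than on 2D, 3 of 33 genes against 6.49% of all genes, and none was at least 1.5-fold lower, against 7.21%. Relative to 2D the TRIB1 hairpin arrays were both higher for 5 cytosolic genes (CARS1, EPRS1, RARS1, SARS1 and YARS1, against 33.8% of all genes) and both lower for 7 (FARSA, FARSB, IARS1, KARS1, LARS1, TARS1 and VARS1, against 38%). All of these 7 but KARS1 were lower than shGFP as well, so 6 of 17 cytosolic genes were below both shGFP and 2D on both hairpin arrays, against 21.6% of all genes. The arrays of the hairpin lines and the 2D array differ in their 5′ to 3′ ratios, so a control hairpin and an array difference cannot be told apart here.

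Cytosolic genes known as ATF4 targets had a higher median difference in spheroid than the other cytosolic genes, and no test of this gap was made. Of 12 measured cytosolic genes that are often described as ATF4 targets, 9 were higher in spheroid than in 2D (47.3% of all genes were), with a median of 0.13, while of the other 5, 1 was higher (RARS1) and the median was -0.14. All 12 were higher on shGFP than on 2D (48.9% of all genes were), with a median of 0.31. So were the other 5 apart from KARS1, with a median of 0.058. With the hairpins 11 of the 12 were lower than shGFP on both arrays (medians -0.36 and -0.20). Of the others 3 of 5 were (medians -0.12 and -0.32), against 34.7% of all genes. The grouping is from general knowledge of these genes and not from these samples.

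The cytosolic genes can also be divided by the printed motif. Of 6 measured cytosolic genes with TGATGNAA in the promoter window, 4 were higher in spheroid than in 2D (AARS1, CARS1, GARS1 and NARS1), with a median of 0.26. Of the 8 with a window but no motif, 4 were higher (EPRS1, RARS1, SARS1 and WARS1), with a median of -0.0025. Of all genes 47.3% were higher in spheroid, and the split by motif was not tested. On the hairpin arrays the medians were -0.45 and -0.20 with the motif and -0.28 and -0.25 without. TARS1 and IARS1 carry the motif beside their starts, as printed above, yet read -0.20 and -0.037 in spheroid. YARS2, the mitochondrial gene that holds it, read -0.14.

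Genes that supply amino acids and are known ATF4 targets were also mostly high on the shGFP array. ASNS, asparagine synthetase and a classical ATF4 target, read 12.15 on shGFP, 11.24 on shTRIB1-1, 11.68 on shTRIB1-2, 11.09 on 2D and 12.05 on spheroid. It was thus 0.96 higher in spheroid than in 2D, and lower on both hairpin arrays than on shGFP, as AARS1 and CARS1 were. Of 17 such supply genes past the level filter, 16 were higher on shGFP than on 2D (48.9% of all genes were) and 11 were lower than shGFP on both TRIB1 hairpin arrays (34.7% of all genes were). Their median difference was 0.056 in spheroid, -0.67 on shTRIB1-1 and -0.18 on shTRIB1-2, so the supply genes and the cytosolic synthetases were both lower on shTRIB1-1, by different amounts. The lowest on that array was SHMT2, a serine enzyme of mitochondria, at -2.29 (-0.34 on shTRIB1-2).

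The regulators of the stress response had a higher median difference in spheroid than any synthetase group. ATF4 itself read 12.40, 12.13 and 12.33 on shGFP, shTRIB1-1 and shTRIB1-2, 11.75 on 2D and 12.31 on spheroid, a difference of 0.56 between spheroid and 2D. Of 18 regulators, 9 were at least 1.5-fold higher in spheroid (12.3% of all genes were), and their median was 0.63, against 0.13 for the synthetase genes described as ATF4 targets. The 2D array was the one that stood apart for the regulators: their median against 2D was also 0.61 on shGFP, 0.45 on shTRIB1-1 and 0.54 on shTRIB1-2, and the spheroid array lay at -0.097 against shGFP. DDIT3, which encodes the stress factor CHOP, had the highest difference, 2.14, and ATF3 followed with 1.97. CHAC1 and EIF4EBP1 were the lowest, at -0.54 and -0.50. On the hairpin arrays TRIB3 and CHAC1 were at least 1.5-fold below shGFP on both, 2 of 18 against 0.96% of all genes.

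On the mitochondrial side, the ribosomal proteins of the organelle were lower in spheroid together with its synthetases. Of 22 mitochondrial ribosomal protein genes, 19 were lower in spheroid than in 2D (50.9% of all genes were), with a median of -0.34, and 4 of them were at least 1.5-fold lower (12.9% of all genes were), with MRPL11 (-0.91) and MRPL37 (-0.80) the lowest. Of 12 genes of mitochondrial translation factors and tRNA amidation, 7 were lower, with a median of -0.11, a share near the 50.9% of all genes. Among them were MRRF, the ribosome recycling factor, at -0.96, and MTFMT, which formylates the initiator tRNA after the methionine enzyme has charged it, at -0.70. With the hairpins 18 of 22 ribosomal protein genes and 10 of 12 factor genes were lower than shGFP on both arrays, beside 7 of 15 mitochondrial synthetase genes and 34.7% of all genes. No test of the difference between these lists was made.

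Genes of elongation factors and of tRNA handling showed a range. Of 9 such genes, 6 were higher in spheroid (47.3% of all genes were), with a median of 0.12. XPOT, which exports tRNA from the nucleus, read 10.90 on 2D and 11.50 on spheroid, a difference of 0.59, and differed from shGFP by -0.90 on shTRIB1-1 and -0.072 on shTRIB1-2. TRNT1, which adds the terminal CCA to tRNAs of both compartments, differed by 0.56 in spheroid, and DTD1, which removes D-amino acids from tRNA, by -0.57. DTD1 was also lower than shGFP on both hairpin arrays, by 0.61 and 0.51.

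**Figure D5:**
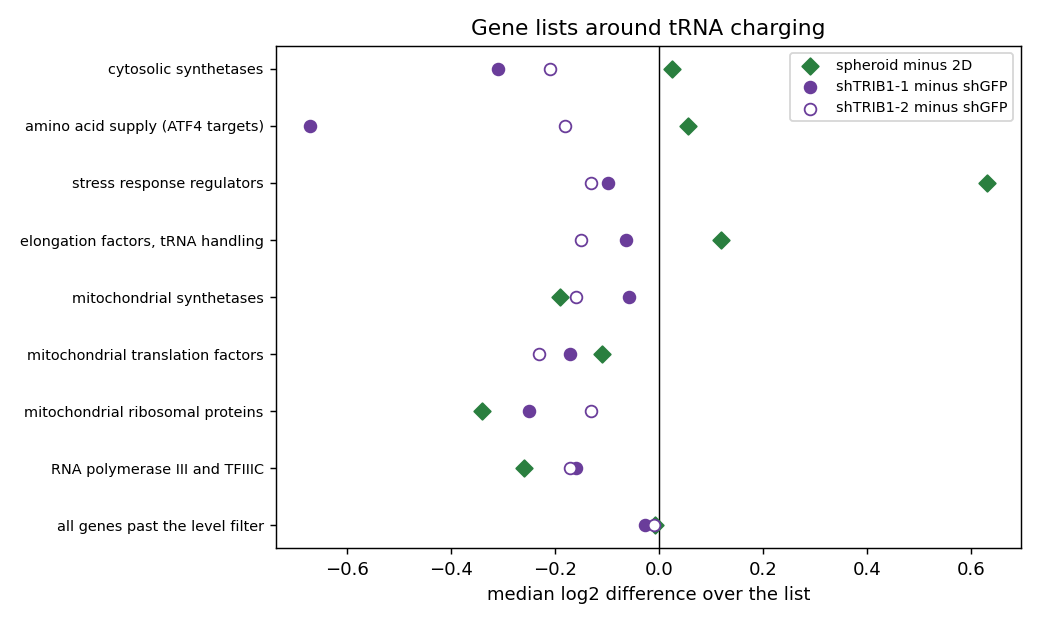
Median log2 difference over each gene list for spheroid minus 2D (green diamonds), shTRIB1-1 minus shGFP (filled circles) and shTRIB1-2 minus shGFP (open circles), for genes past the level filter. Spheroid medians are below 0 for the 3 mitochondrial lists and RNA polymerase III and above 0 for the other 4 gene lists, and the lowest hairpin median is that of the supply genes on shTRIB1-1 (-0.67).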

How the data were processed

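The authors deposited RMA intensities for 54675 probe sets on a linear scale, made with RMA per the submitters' processing notes, which name no version. RMA makes the arrays' distributions alike, so a shift of most genes would be hidden. From the deposited intensity, log2 was taken without a pseudocount. Gene names came from the platform annotation: 41097 probe sets carried 1 symbol, 1801 several and 11777 none, 62 controls included. RefSeq (GRCh38.p14) matched 41043 probe sets and changed 0 symbols. A gene entered a comparison at a level of 6 or more on any compared array (10570 genes for spheroid and 2D, 10522 for the hairpins).

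Spheroid and 2D were compared without a test. The hairpins were compared with limma 3.58.1 (R 4.3.3, intensity trend, Benjamini-Hochberg), which was tested on simulated data. Its p-values measure only the spread between these arrays, which may be technical. All 38 listed genes may be named, with the 2 highest and lowest of each related list, and TRIB1, ATF4 and ASNS. The genes, lists and thresholds were chosen with earlier results of these data known. Alternatives were other probe set choices, filters, centring, a pseudocount, another reference and leaving out a hairpin.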

Additional observations from a re-analysis of the deposited data

Results flagged for a closer look

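SARS1 has a second probe set, outside the comparisons above because its level is lower. It read 7.25 on 2D and 8.78 on spheroid, a difference of 1.53, where the brighter probe set gave 0.31. On shGFP, shTRIB1-1 and shTRIB1-2 it read 7.73, 7.30 and 7.86. It was singled out by a search of the probe sets not used above. The search took those at least 2-fold higher in spheroid than in 2D, or on a TRIB1 hairpin array than on shGFP. Lower readings, and shGFP against 2D, were not searched.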

How the results depend on the processing

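No paired analysis was possible because shGFP, 2D and spheroid have 1 array each and no label ties the cultures to each other. Counts of genes above or below a control were added to the alternatives after seeing the data. Of the values of single genes for spheroid minus 2D, 194 moved by at most 0.1 and 23 by more. With no level filter or a filter of 8 no value could move, here or for the hairpins, yet these are counted as unmoved. The 23 came from combining probe sets and from the mean of 2D and shGFP as reference. The exception was AIMP1, which took another probe set when those matching several transcripts were left out. For the hairpins, 197 moved by at most the SD of the 2 hairpins and 20 by more, apart from leaving out a hairpin, which gives each hairpin's own difference and can turn the sign of the mean: from 0.23 to -0.23 for CARS2, from -0.21 to 0.19 for SARS2 and from -0.10 to 0.16 for EARS2. Only HARS1 and WARS2 in spheroid were past 1.5-fold in the main analysis, and neither changed sign. No mean of the hairpins was past that line. Smaller differences in spheroid did change sign. With probe sets combined by their median, TARS1 went from -0.20 to 0.20 and AIMP1 from 0.26 to -0.20. With the mean of 2D and shGFP as reference, SARS1 went from 0.31 to -0.13.

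Without the probe sets that can match several transcripts (suffixes _s_at and _x_at), 10 of the 17 cytosolic genes are left. For spheroid minus 2D their median became 0.18 and its gap to the mitochondrial median 0.38, with 6 of 10 higher, and the cytosolic gene was the higher in 5 of 7 pairs. For the hairpins 7 of the 10 were lower on both arrays. With the mean of 2D and shGFP as the reference, the cytosolic median was -0.12 in spheroid, with 6 of 17 higher, and -0.17 for the hairpins, so the sign of the small cytosolic median in spheroid depends on the reference; 10 of 17 were then lower on both hairpins. When all probe sets of a gene were combined by their median, the mitochondrial median for the hairpins was -0.21 and the gap between compartments went from -0.16 to -0.010. The same gap was -0.024 with the mean of 2D and shGFP as reference and between -0.25 and -0.056 without 1 hairpin. With 16 added to each intensity, 1 gene and not 2 passed 1.5-fold in spheroid (WARS2). It was 3 with probe sets combined (SARS1 added, higher) and 3 with the mean reference (EARS2 added, higher), and with centred arrays EARS2 took the place of HARS1.

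Leaving out 1 hairpin, between 0 and 4 synthetase genes passed 1.5-fold with the hairpin that remained, and between 10 and 12 of 15 mitochondrial genes and between 15 and 16 of 17 cytosolic genes were lower than shGFP. The share of all genes lower on a single hairpin array is not reported here, so these counts of lower genes have no background. With 1 hairpin left out, the cytosolic median lay between -0.31 and -0.21 and the mitochondrial median between -0.16 and -0.058. Over all genes the median was -0.027 on shTRIB1-1 and -0.0095 on shTRIB1-2. The 12 mitochondrial genes lower in spheroid were the same with 5 alternatives. Of these, only centred arrays and the mean of 2D and shGFP as reference could have changed a sign. Having no level filter or leaving out _s_at and _x_at probe sets kept the same mitochondrial values. Adding 16 to each intensity cannot turn a sign. The level filter of 8 left 8 of them among 11 genes. With probe sets combined, 11 of them were lower, CARS2 fell under the filter, and EARS2 turned from 0.55 to -0.048. Limma called 0 genes under every alternative, with its smallest adjusted p between 0.557 and 1. Signal over background limits PARS2 and SARS2 most, whose levels lie near 6.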

Other observations

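Genes tied to the transcription of tRNAs were mostly lower in spheroid. Of 16 genes of RNA polymerase III, its factors and its repressor, 12 were lower in spheroid than in 2D (50.9% of all genes were), with a median of -0.26. The repressor was among the 12. POLR3B, a catalytic subunit, read 9.19 on 2D and 8.22 on spheroid (-0.98), and GTF3C4, a subunit of TFIIIC, 9.20 and 8.35 (-0.85). On the hairpin arrays 9 of 15 were lower than shGFP on both (34.7% of all genes were), and GTF3C4 differed by -1.57 on shTRIB1-1 and -0.068 on shTRIB1-2.

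Probe sets of the same synthetase gene disagreed in places. Of 16 genes with several probe sets past the level filter, 11 had the same sign with all of them for spheroid minus 2D, and AIMP1, EARS2, LARS1, TARS1 and WARS1 had opposite signs. Against shGFP, signs were opposite for EARS2 and RARS2 on shTRIB1-1 and for CARS2, SARS1 and VARS1 on shTRIB1-2. A dim probe set of TARS1 gave 0.60 where the brighter one gave -0.20. Between shGFP and 2D, a probe set of LARS1 read 7.44 on the former and 9.44 on the latter, where the brightest was 0.21 higher on the former. A probe set of EPRS1 gave -0.59 in that comparison, where the brightest gave 0.49.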
